A study of Mus musculus with 6 samples.

Results

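The genes described here encode subunits and assembly factors of the oxidative phosphorylation complexes I to V, measured in mice with heart failure (HF) and in control mice, in heart, whole blood and plasma. Members were taken by gene name, as every mRNA in the held part of the gene table of the array whose name begins with Nduf, Sdha to Sdhd, Uqcr, Cox4 to Cox8 or Atp5. The rule found 22 features of 21 genes among 4093 mRNA features of 3470 named genes. No gene of complex III (Uqcr) and none of the subunits of complex II was in the part of the table held. The members nearest to these complexes are Sdhaf1, an assembly factor of complex II, and Cox7a2l, classed here as a factor of supercomplexes of III and IV. Every mRNA of the table held was detected on at least 1 of the heart arrays, 4020 of them in control heart and the other 73 in HF heart, and all 22 member features were detected in control heart.

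Male C57BL/6J mice were injected subcutaneously with isoproterenol, which activates β-adrenergic receptors, at 40 mg/kg/day for 1 week (HF) or with saline (control). Each group and tissue gave 1 mixture, measured on 1 array with LncRNA and mRNA features. The methods give 5 mice for each mixture but also describe blood and plasma of several mice combined before extraction, and which of these was measured is not clear. In the absence of replicates no test, p value or SD could be given for a difference. The error given beside a log2 difference combines the software's error of the spots on the 2 arrays and does not cover mice or preparations. It was close to 0.144 on 1 array for most bright spots, so it is not a measured spread. Between spots of repeated features the median SD on the log2 scale was 0.05 in HF heart and 0.24 in HF plasma.

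Oxidative phosphorylation takes place in the inner mitochondrial membrane. Complexes I and II take electrons from NADH and succinate, complexes III and IV pass them on to oxygen while protons are pumped, and complex V, the ATP synthase, uses the returning protons to make ATP. The beating heart draws nearly all of its ATP from this chain, mature erythrocytes have lost their mitochondria, and heart and skeletal muscle carry muscle isoforms of some complex IV subunits, which other tissues replace with a second gene.

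A feature was called detected on an array when it was well above background and not an outlier spot, and a member was counted as higher or lower when both arrays of a pair detected it and its levels differed at least 2-fold. Levels are log2 signals after quantile normalization over the 6 arrays, and they can be compared between arrays for the same gene but not between genes. Between 25% and 47.3% of all 59729 features were detected on an array. The signal at the 99th percentile of the HF arrays was 6015 for whole blood and 6723 for plasma, against 25796 and 19232 in the controls, and 27177 in HF heart against 36792 in control heart. No spot of a member was saturated. Both heart arrays and both HF blood arrays carried 1 scan date and both control blood arrays another. In whole blood and plasma the scan date and HF therefore cannot be told apart.

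**Figure D1:**
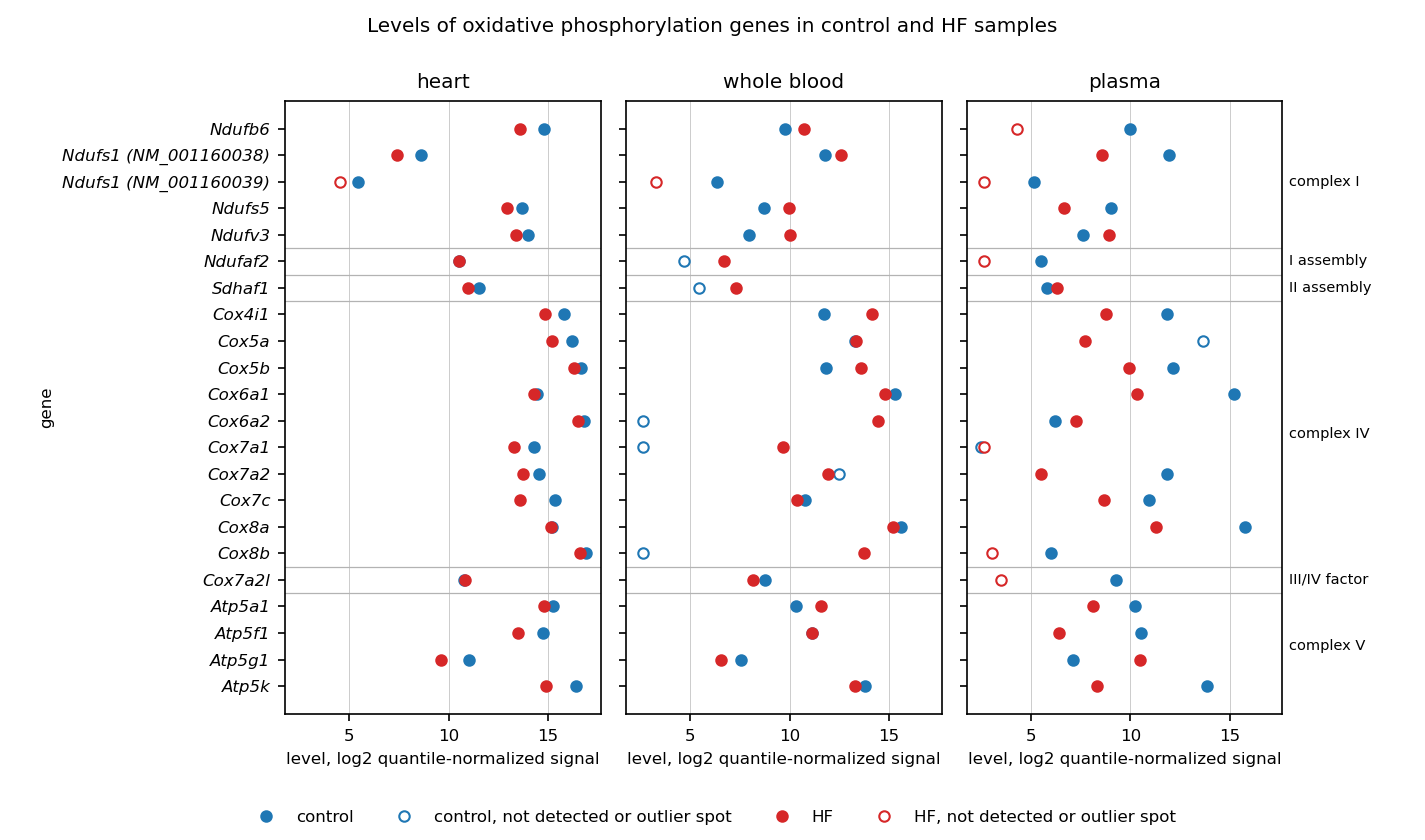
Level of each of the 22 features (rows, grouped by complex) as log2 quantile-normalized signal on the x axis, in heart, whole blood and plasma, with control in blue and HF in red. Open points are features not well above background or outlier spots. In heart the points lie close together, in whole blood Cox6a2, Cox7a1 and Cox8b lie at the background in control and far above it in HF, and in plasma most HF points lie left of the control points.

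In heart, no member was at least 2-fold higher in HF and 7 of the 21 members detected on both arrays were at least 2-fold lower. Of all mRNAs of the table detected on both heart arrays, 17.1% were lower and 11.6% were higher, and of all features of the array 12.9% and 13.9%. The median log2 of HF over control was -0.78 for the members and -0.16 for the mRNAs. With each array scaled to its 75th percentile in place of quantile normalization, however, the members' median was -0.10 against -0.01 for the mRNAs. Under that scaling 2 of the 21 members were lower (Atp5g1 and Ndufs1) and 0 higher, beside 14% and 16.7% of the mRNAs. Among 136 mRNAs with a mean heart level of at least 13 under quantile normalization, 14.7% were lower, with a median of -0.13. The member features of complex V had a median of -1.33 (3 of 4 lower), those of complex I -0.99 (2 of 4 lower) and those of complex IV -0.56 (2 of 10 lower), while the 3 assembly and supercomplex factors had none past 2-fold.

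Complex V, the ATP synthase, held 3 of the 7 members that fell. Atp5g1 encodes subunit c, which forms the rotating ring in the membrane. Its level was 11.02 in control heart and 9.62 in HF heart, a log2 difference of -1.40 (error 0.20), or 2.64-fold lower. It was the single member at least 2-fold lower under all 6 normalizations computed, with a log2 difference between -1.40 and -1.03. Atp5k, a small subunit e that takes part in the pairing of synthases, was at 16.40 in control and 14.87 in HF heart, 2.88-fold lower (log2 -1.52, error 0.20), and its difference was -0.40 when scaled to the 75th percentile. Atp5f1, subunit b of the peripheral stalk, was at 14.73 in control and 13.47 in HF heart, 2.40-fold lower (log2 -1.27, error 0.20), and -0.45 when scaled to the 75th percentile. Atp5a1, the α subunit of the catalytic head, was at 15.22 in control and 14.81 in HF heart, a log2 difference of -0.41 that turned to 0.26 under the 75th percentile. The log2 difference of the catalytic head gene was thus 0.86 to 1.12 above those of the membrane and stalk genes under quantile normalization.

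Complex I, the NADH dehydrogenase, had 5 features of 4 subunit genes. Ndufb6, a subunit of the membrane arm, was at 14.80 in control heart and 13.57 in HF heart, 2.34-fold lower (log2 -1.23, error 0.20), with -0.43 when scaled to the 75th percentile. Ndufs1, the large iron-sulfur subunit, had 2 features made for different transcripts. The feature for NM_001160038 was at 8.59 in control heart and 7.40 in HF heart, 2.28-fold lower (log2 -1.19, error 0.21), and stayed between -1.30 and -0.95 over the normalizations. It was 9.25-fold lower in control heart than in control whole blood, whereas 3 of the 5 complex I features were at least 2-fold higher in heart. The feature for NM_001160039 was at 5.43 in control heart and 4.54, not well above background, in HF heart, where it was at least 1.63-fold lower. Ndufs5, an accessory subunit, was at 13.69 in control and 12.91 in HF heart (log2 -0.78), and Ndufv3, a subunit of the NADH-binding module, at 13.96 and 13.37 (log2 -0.59). Neither of these 2 differed by 2-fold.

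Complex IV, cytochrome c oxidase, had the widest spread of differences in heart, from -1.76 to -0.08. Cox7c, a small nuclear-encoded subunit, fell from 15.34 to 13.58, which was 3.39-fold lower (log2 -1.76, error 0.20) and the largest fall of any member in heart under quantile normalization. Its difference was -0.74 when scaled to the 75th percentile. Cox5a, a subunit on the matrix side, was at 16.19 in control and 15.18 in HF heart, 2.02-fold lower (log2 -1.01, error 0.20), with -0.09 under the 75th percentile. Cox4i1, a subunit that takes part in regulating the enzyme by ATP, was just inside 2-fold, at 15.78 and 14.82 (log2 -0.96). Cox5b, also on the matrix side, was at 16.63 in control heart and 16.29 in HF heart (log2 -0.33).

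None of the muscle isoforms of complex IV or their counterparts reached 2-fold in heart under quantile normalization over the 6 arrays. Cox6a2 was at 16.80 in control heart and 16.51 in HF heart (log2 -0.29), and its counterpart Cox6a1 at 14.43 and 14.28 (log2 -0.15). Cox8b was at 16.91 and 16.60 (log2 -0.31) and Cox8a at 15.21 and 15.13 (log2 -0.08). Cox7a1 was at 14.26 and 13.30 (log2 -0.96, and -1.06 with normexp) and Cox7a2 at 14.52 and 13.73 (log2 -0.79). The muscle isoform minus its counterpart was -0.14 for Cox6a, -0.17 for Cox7a and -0.23 for Cox8. Each was smaller than its error of 0.29, which comes from the software and is not a measured spread.

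Ndufaf2, an assembly factor of complex I, was at 10.50 on both heart arrays. Sdhaf1 was at 11.53 in control and 10.96 in HF heart (log2 -0.57), and Cox7a2l at 10.76 and 10.81 (log2 0.04). Over the 6 normalizations, 13 of the 21 members were below 0 in all, 1 was above 0 in all and 7 changed sign, and 9 were at least 2-fold lower in at least 1 of them. The members thus differed among themselves, with Atp5g1, Cox7c and the Ndufs1 feature for NM_001160038 at one end and Cox8a, Cox6a1, Ndufaf2 and Cox7a2l at the other.

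**Figure D2:**
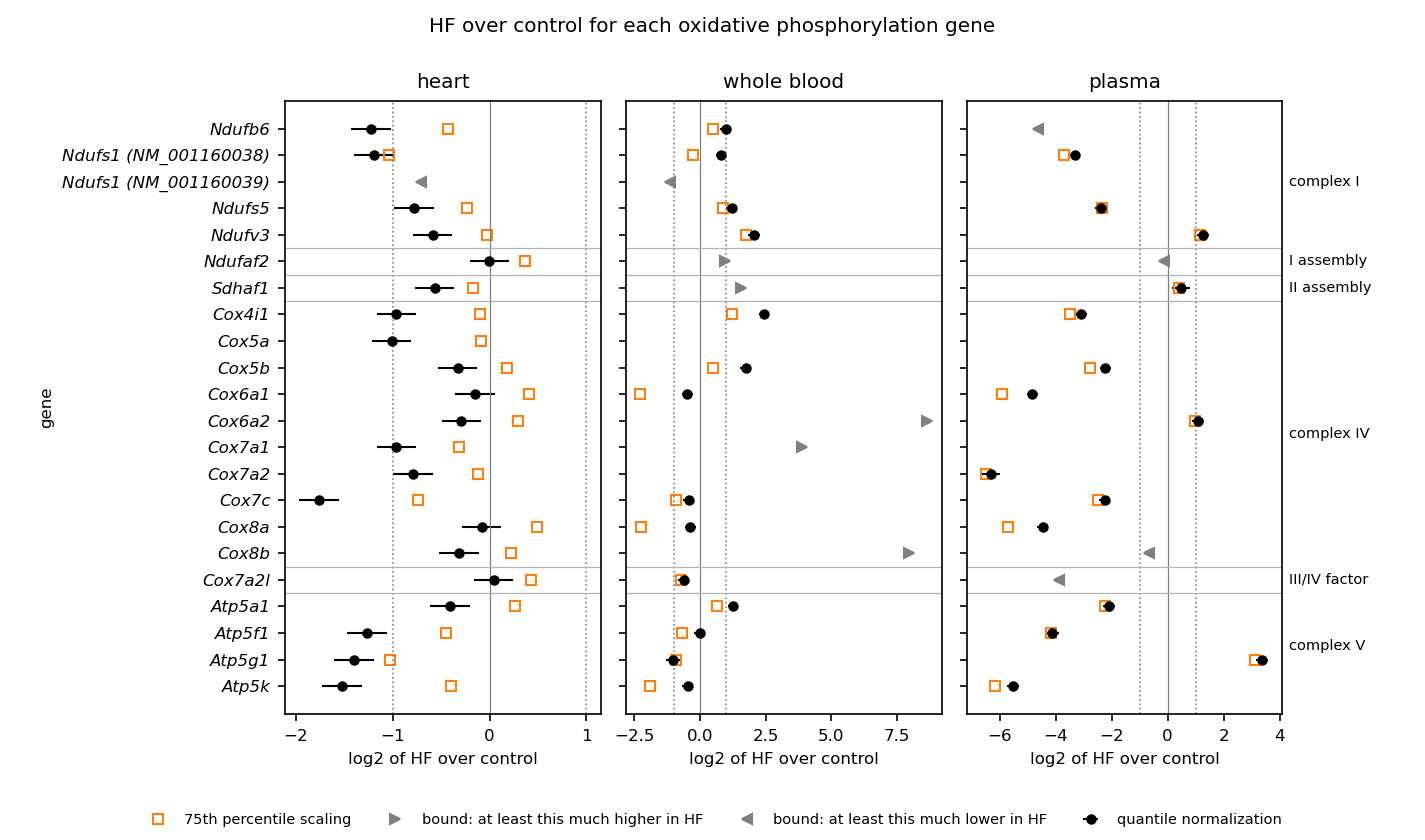
Log2 of HF over control (x axis) for each member (rows) in the 3 tissues. Black points are quantile-normalized differences with the software's error, combined over the 2 arrays, as bars. Orange squares are the same differences after 75th percentile scaling, grey triangles bounds for members not well above background on 1 array, and dotted lines mark 2-fold. In heart the orange squares lie right of the black points and 2 of them reach 2-fold lower, and in plasma both lie far to the left for 11 members.

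Cell type markers were read beside these values. All 22 cardiomyocyte marker features were detected on both heart arrays, with a median log2 difference of 0.35, 7 of them higher and 3 lower in HF. The 4 fibroblast features detected on both arrays had a median of 1.54 and the 4 neutrophil features one of 4.28. The 2 platelet features had a median of -1.67 and the 2 adipocyte features one of -0.82. The skeletal muscle list was mixed, with 4 features higher and 2 lower, while its summed level on the log2 scale went from 15.60 to 12.88. Their part in the members' lower values was not tested, and fewer cells of a type and less RNA per cell cannot be told apart in tissue RNA. Of 18 features of other mitochondrial energy genes (fatty acid oxidation, pyruvate oxidation, the citric acid cycle, carriers and regulators) detected on both heart arrays, 4 were lower and 0 higher, with a median of -0.42. Of all mRNAs detected on both heart arrays, 17.1% were lower and 11.6% higher, with a median of -0.16. The largest fall was that of Acadm, the medium-chain acyl-CoA dehydrogenase of fatty acid oxidation, at -1.61 (error 0.20). The largest rise was that of Nrf1, a transcription factor of respiratory genes, at 0.60 (error 0.22), which is inside 2-fold.

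In whole blood, the muscle isoforms of complex IV appeared on the HF array and were not well above background on the control array. Cox6a2 was at 2.65 in control and 14.42 in HF, at least 400-fold higher in HF. Cox8b was at 2.65 and 13.74, at least 249-fold higher, and Cox7a1 at 2.65 and 9.66, at least 14.7-fold higher. Each bound sets the HF level against the lowest level detected on the control array. With 75th percentile scaling, the lowest of the 6 normalizations, the bounds were 188-fold, 124-fold and 11.3-fold. Of the 7 members not detected in control whole blood all 7 were detected in HF, against 54.5% of the 1467 mRNAs not detected in control. They were these 3 isoforms, Ndufaf2, Sdhaf1, and Cox5a and Cox7a2, whose control spots were bright but flagged as outliers.

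The counterparts of the muscle isoforms were bright on both whole blood arrays. Cox6a1 was at 15.28 in control and 14.79 in HF whole blood (log2 -0.49), and Cox8a at 15.58 and 15.21 (log2 -0.37). Both were 2-fold or more lower after scaling to the 75th percentile, at -2.27 and -2.24. Cox7a2 was at 12.48 on the outlier spot of control and at 11.94 in HF. For the Cox6a and Cox8 pairs, the muscle gene was thus higher in HF and the counterpart below 0 under all 6 normalizations.

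Cardiomyocyte markers stood beside these isoforms on the same array. Of 22 cardiomyocyte features, 5 were detected in control and 21 in HF, and their summed level went from 14.52 to 17.07 on the log2 scale. Nppa, the atrial natriuretic peptide gene, was at 2.65 in control and 15.52 in HF, and the cardiac troponin gene Tnni3 at 2.65 and 12.31. Of the 2 brightest features of the list over the 6 arrays, Fabp3, a fatty acid binding protein of heart muscle, was at 2.65 and 13.91. The other, for Myh6, was at 14.47 in control and 14.71 in HF whole blood but 10.88 in control heart, so it did not follow heart tissue. The adipocyte list was also detected more widely in HF whole blood (1 of 3 detected in control, 3 in HF). So were the fibroblast (1 and 4 of 5) and neutrophil (2 and 5 of 5) lists. The skeletal muscle (3 and 6 of 7) and hepatocyte (3 and 4 of 4) lists were too. The lens and eye list (2 and 2 of 3), the platelet list (2 and 2 of 2) and the lymphocyte list (3 and 3 of 4) were not. The erythroid count rose as well (5 and 7 of 7), but the lowest control level of that list was 11.93. The lowest level detected on the control array was 5.78, so the 2 erythroid features detected in HF alone were bright in control too. The median level of the erythroid list was 15.92 in control and 13.83 in HF. Of all features of the array, 25% were detected in control and 29.8% in HF. The neutrophil features detected on both arrays had a median log2 difference of 4.27 and the lymphocyte features one of -4.13. Whether heart RNA was present in the HF blood mixture was not tested.

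**Figure D3:**
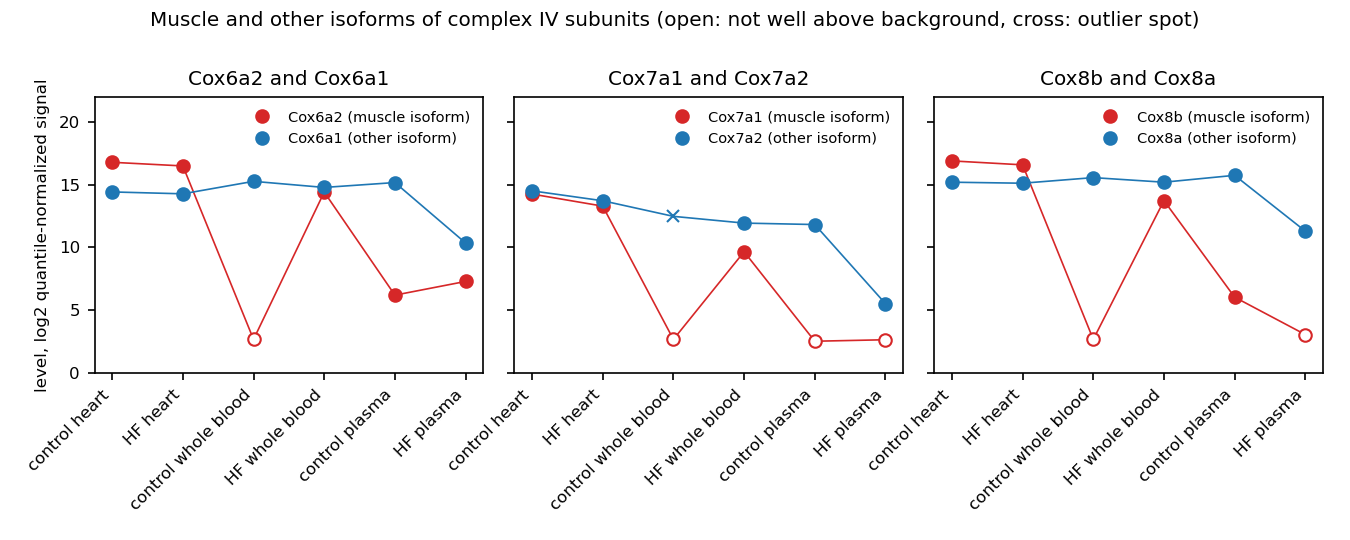
Level (y axis, log2 quantile-normalized signal) of each muscle isoform (red) and its counterpart (blue) on the 6 arrays (x axis). Open points are not well above background and the cross is an outlier spot. The red points drop to 2.65 in control whole blood and stand at 9.66, 13.74 and 14.42 in the HF array of whole blood, while the blue points stay above 11.8 on all arrays but that of HF plasma.

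The promoters of 2 isoform pairs, Cox8 and Cox7a, are shown. The Cox8 genes parted in whole blood, while for the Cox7a pair no difference could be given because the control spot of Cox7a2 was an outlier. The Cox6a pair also parted, but no promoter was matched to Cox6a2. The sequences are those of RefSeq on GRCm38.p6, from 250 bases before to 50 bases after the start, 5′ to 3′ on the strand of the gene, with each CG dinucleotide in capitals. Cox8b lies at chr7:140900397-140900696 on the minus strand, Cox8a at chr19:7217567-7217866 on the minus strand, Cox7a1 at chr7:30183921-30184220 on the plus strand and Cox7a2 at chr9:79759804-79760103 on the minus strand.
Cox8b: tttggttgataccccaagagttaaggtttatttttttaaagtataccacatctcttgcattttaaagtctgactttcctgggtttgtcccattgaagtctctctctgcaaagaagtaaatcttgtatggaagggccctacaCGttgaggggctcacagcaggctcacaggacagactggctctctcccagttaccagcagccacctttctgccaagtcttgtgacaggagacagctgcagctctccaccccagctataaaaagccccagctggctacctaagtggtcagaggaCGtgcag
Cox8a: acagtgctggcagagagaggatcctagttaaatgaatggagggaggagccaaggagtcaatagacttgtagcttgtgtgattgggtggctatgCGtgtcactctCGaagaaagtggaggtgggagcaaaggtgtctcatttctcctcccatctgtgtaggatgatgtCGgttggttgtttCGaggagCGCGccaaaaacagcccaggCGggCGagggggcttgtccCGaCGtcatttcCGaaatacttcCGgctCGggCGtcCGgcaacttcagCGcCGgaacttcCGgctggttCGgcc
Cox7a1: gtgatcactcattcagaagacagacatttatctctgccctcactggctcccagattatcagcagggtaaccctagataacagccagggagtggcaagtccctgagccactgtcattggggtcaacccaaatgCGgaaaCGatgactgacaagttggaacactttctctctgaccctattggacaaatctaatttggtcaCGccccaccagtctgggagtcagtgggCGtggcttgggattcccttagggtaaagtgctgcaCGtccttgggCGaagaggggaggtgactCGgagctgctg
Cox7a2: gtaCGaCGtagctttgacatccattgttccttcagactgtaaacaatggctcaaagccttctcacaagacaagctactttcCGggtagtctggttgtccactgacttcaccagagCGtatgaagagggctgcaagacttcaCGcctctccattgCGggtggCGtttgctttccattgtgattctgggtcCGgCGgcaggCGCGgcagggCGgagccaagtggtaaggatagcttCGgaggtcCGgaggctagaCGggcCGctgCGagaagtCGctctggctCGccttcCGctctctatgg

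The muscle genes shown had fewer CG dinucleotides, 2 for Cox8b and 7 for Cox7a1, than their counterparts, with 19 for Cox8a and 20 for Cox7a2. Of the 17 member genes matched to a promoter, the other 15 had 14 to 35. Among all 32851 promoters of that length the median was 7, with 51.4% at 7 or fewer and 23.3% at 2 or fewer. The letters TATAAA were found, of the 17, in Cox8b, and in 13.6% of all promoters on either strand. The E-box CAGCTG was found in Cox8b and Ndufs5 (16.3% of all). CCGGAAG, the core bound by ETS factors, was found in 5 member promoters, those of Cox8a, Cox6a1, Ndufb6, Atp5k and Sdhaf1, and in 8.86% of all. TGCGCA, the core of the NRF1 site, was found in 5, those of Cox5b, Cox6a1, Ndufs5, Ndufb6 and Atp5f1, and in 7.76% of all. AAGGTCA, bound by oestrogen-related receptors, was found in Atp5k and Ndufs5 (4.72% of all), and the MEF2 motif in no member and in 0.557% of all. These are matches of letters in the window and were not tied to the levels.

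Among the 14 members detected on both whole blood arrays, 5 were at least 2-fold higher and 1 at least 2-fold lower in HF, beside 20.1% and 27.6% of the mRNAs and 21.4% and 26.8% of all features. The members' median log2 difference was 0.39 and that of the mRNAs -0.20. This direction did not hold under every scaling. With the 75th percentile 2 of the 14 members were higher and 3 lower, beside 15.8% and 34% of the mRNAs. The median was then -0.46 against -0.41 for the mRNAs. The members parted by gene. Cox4i1 was at 11.72 in control whole blood and 14.15 in HF, 5.40-fold higher (log2 2.43, error 0.20). Ndufv3 was at 7.98 and 10.03, 4.15-fold higher (log2 2.05, error 0.22). These 2 were at least 2-fold higher under all 6 normalizations.

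Cox5b was at 11.83 in control and 13.57 in HF whole blood, 3.34-fold higher (log2 1.74), with 0.49 after scaling to the 75th percentile. Atp5a1 was at 10.35 and 11.60, 2.39-fold higher (log2 1.25), and Ndufs5 at 8.73 and 9.95, 2.33-fold higher (log2 1.22). Both came inside 2-fold under the 75th percentile, at 0.63 and 0.88. Ndufb6 was at 9.77 and 10.75 (log2 0.98), and the Ndufs1 feature for NM_001160038 at 11.80 and 12.61 (log2 0.80). All 4 complex I features detected on both arrays lay above 0, from 0.80 to 2.05.

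In whole blood Atp5g1 was the single member lower by 2-fold or more, at 7.56 in control and 6.55 in HF, which was 2.01-fold lower (log2 -1.01, error 0.27). It came inside 2-fold under each of the 5 other normalizations, between -0.94 and -0.46. Atp5k was at 13.78 and 13.31 (log2 -0.47), Cox7c at 10.79 and 10.36 (log2 -0.43), Atp5f1 at 11.13 and 11.11 (log2 -0.02) and Cox7a2l at 8.78 and 8.16 (log2 -0.62). Sdhaf1 was at 5.44, not well above background, in control and 7.32 in HF, at least 2.92-fold higher (1.71-fold under the normalization with the lowest bound), and Ndufaf2 at 4.69, not well above background, and 6.71, at least 1.91-fold higher. The second Ndufs1 feature went the other way, at 6.35 in control and 3.31, not well above background, in HF, at least 2.23-fold lower. Cox5a was at 13.28 on an outlier spot in control and 13.35 in HF.

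Of 10 features of other mitochondrial energy genes detected on both whole blood arrays, 7 were higher and 1 lower, with a median of 1.54. Of all mRNAs detected on both, 20.1% were higher and 27.6% lower. The largest rise was that of Slc25a4, the ADP/ATP carrier of heart and muscle, at 4.77 (error 0.31), and the largest fall that of Acads, the short-chain acyl-CoA dehydrogenase, at -1.59 (error 0.21). The erythroid features stayed near their control levels in part, with 2 of the 5 detected on both arrays lower and a median of -0.23.

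In plasma, 11 of the 15 members detected on both arrays were at least 2-fold lower in HF and 3 were higher, beside 23.7% and 32.8% of the mRNAs and 25.6% and 32.1% of all features. Another 5 of the 20 members detected in control plasma were not detected in HF plasma, beside 33.4% of the mRNAs. The median log2 difference was -2.37 for the members and 0.29 for the mRNAs, and under the other 5 normalizations it lay between -2.78 and -2.04 with 11 members lower in each. These 11 were the same members under all 6 normalizations. Of the complex IV subunits detected on both plasma arrays, the counterparts of the muscle isoforms fell furthest. This order leaves out Cox5a, whose control spot was an outlier and whose difference of -5.91 was larger than those of Cox6a1 and Cox8a. Cox7a2 was at 11.83 in control plasma and 5.51 in HF plasma, 79.9-fold lower (log2 -6.32, error 0.34). Cox6a1 was at 15.18 and 10.35, 28.4-fold lower (log2 -4.83, error 0.20). Cox8a was at 15.76 and 11.30, a log2 difference of -4.46 (error 0.20).

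The other complex IV subunits were lower as well. Cox4i1 was at 11.84 in control plasma and 8.77 in HF plasma, 8.44-fold lower (log2 -3.08), Cox7c at 10.92 and 8.67, 4.75-fold lower (log2 -2.25), and Cox5b at 12.16 and 9.94, 4.66-fold lower (log2 -2.22). Cox5a was at 13.64 on an outlier spot in control and 7.73 in HF plasma, a log2 difference of -5.91 that was not counted. Cox7a2l was at 9.25 in control and 3.50, not well above background, in HF, at least 14.7-fold lower. The muscle isoforms differed among themselves in plasma. Cox6a2 was at 6.19 in control and 7.28 in HF plasma, 2.14-fold higher (error 0.21 on the log2 scale), and inside 2-fold with the 75th percentile (0.98) and with normexp (0.91), so that Cox6a2 minus Cox6a1 was 5.92 (error 0.29). Cox8b was at 6.02 in control and 3.04, not well above background, in HF plasma, at least 1.57-fold lower, and Cox7a1 was not well above background on either plasma array.

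Complex V was split. Atp5k was at 13.83 in control plasma and 8.30 in HF plasma, 46.1-fold lower (log2 -5.53, error 0.21). Atp5f1 was at 10.53 and 6.41, 17.4-fold lower (log2 -4.12, error 0.25), and Atp5a1 at 10.24 and 8.14, 4.28-fold lower (log2 -2.10, error 0.21). Atp5g1 was at 7.12 in control and 10.49 in HF plasma, 10.4-fold higher (log2 3.37, error 0.22), and at least 2-fold higher under all 6 normalizations. The log2 difference of Atp5g1 between HF and control was thus 5.47 to 8.90 above those of the other 3 subunits of the same complex. In complex I, the Ndufs1 feature for NM_001160038 was at 11.91 and 8.59 (log2 -3.32), and Ndufs5 at 9.02 and 6.65, 5.16-fold lower (log2 -2.37). Ndufb6 was at 9.99 in control and 4.33, not well above background, in HF plasma, at least 24.6-fold lower. Ndufv3 was at 7.63 and 8.91, 2.42-fold higher (log2 1.27, error 0.21), and inside 2-fold with a normexp background correction, at 0.84.

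The assembly factors were dim in plasma. Sdhaf1 was at 5.83 in control and 6.31 in HF plasma (log2 0.47), and Ndufaf2 at 5.52 in control and 2.62, not well above background, in HF. The second Ndufs1 feature was at 5.13 in control and 2.62, not well above background, in HF. Of the 8 features of other mitochondrial energy genes detected on both plasma arrays, 6 were lower and 1 higher, with a median of -2.59. Of all mRNAs detected on both, 23.7% were lower and 32.8% higher. The largest fall was that of Vdac3, a channel of the outer mitochondrial membrane, at -4.36 (error 0.23), and the largest rise that of Gabpa, a transcription factor of respiratory genes, at 1.81 (error 0.29).

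Erythroid markers were low in HF plasma beside the members. Of 7 erythroid features, 6 were detected in control plasma and 3 in HF plasma, and their summed level went from 18.99 to 13.54 on the log2 scale. Hba-a1, an α-globin gene, was at 17.53 in control and 13.49 in HF plasma, and Hbb-b1, a β-globin gene, at 17.58 and 7.70. Both platelet features were lower too, with a median of -4.37, and the 4 neutrophil features detected on both arrays were higher, by 2.16 to 7.63 on the log2 scale. The summed level of the complex IV subunits other than the muscle isoforms went from 16.86 to 12.53. The part of blood cell RNA in the members' fall was not tested.

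**Figure D4:**
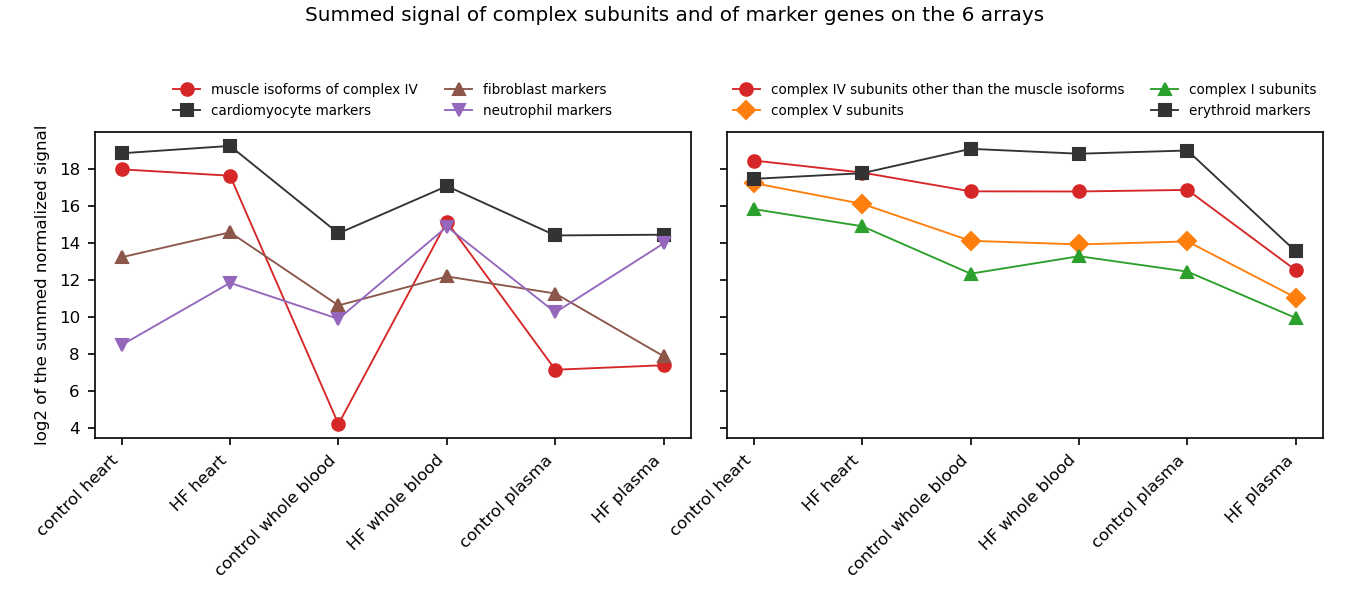
Log2 of the summed quantile-normalized signal (y axis) of member groups and of marker lists on the 6 arrays (x axis). On the left the muscle isoforms of complex IV (4.24 in control and 15.15 in HF whole blood) are drawn with cardiomyocyte, fibroblast and neutrophil markers, and on the right the other complex IV subunits, complex V and complex I with erythroid markers, all of which are lowest in HF plasma.

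Comparisons between tissues of the same group showed the same parting of the isoforms. HF heart and HF whole blood shared a scan date. Of the 21 members detected on both, 17 had a level in HF heart at least 2-fold that in blood, beside 34.5% of the mRNAs. At least 2-fold lower in HF heart was 1 member, beside 43.3%. The muscle isoforms stood 2.09 (Cox6a2), 2.86 (Cox8b) and 3.64 (Cox7a1) higher in HF heart on the log2 scale. Their counterparts stood -0.51 (Cox6a1), -0.08 (Cox8a) and 1.78 (Cox7a2) from HF whole blood. The Ndufs1 feature for NM_001160038 was the single member lower in HF heart, by 36.8-fold, and it was also 9.25-fold lower in control heart than in control whole blood. In control, 11 of 15 members were higher in heart than in whole blood, beside 17.8% of the mRNAs, and 1 was lower, beside 56.1%. The lowest of the 11 differences was 3.95-fold (Cox7a2l) and the highest 63.3-fold (Ndufv3).

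The control plasma array was close to that of control whole blood, and the HF arrays were not close to each other. Of 15 members detected on both control arrays, 0 were at least 2-fold higher in plasma and 1 was lower, the Ndufs1 feature for NM_001160039 at 2.32-fold, beside 2.68% and 2.84% of the mRNAs. In HF, 15 of the 16 members detected on both were lower in plasma than in whole blood, beside 29.5% of the mRNAs, with a median log2 difference of -3.96. The exception was Atp5g1, 15.3-fold higher in HF plasma, beside 38.2% of the mRNAs higher. Cox6a2 was 141-fold lower in HF plasma than in HF whole blood and Cox8b at least 330-fold lower.

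**Figure D5:**
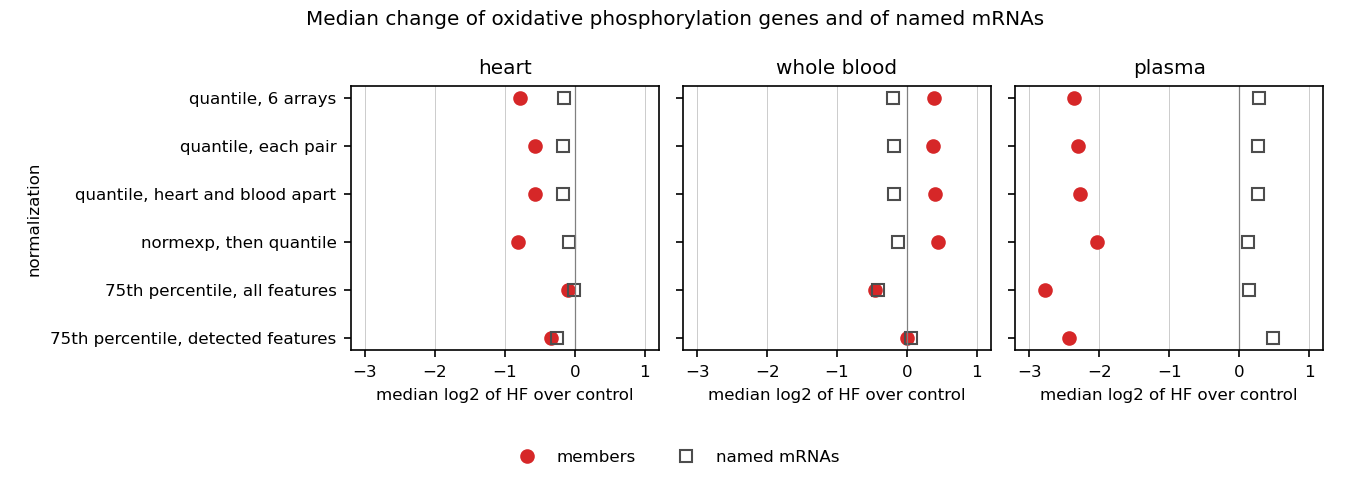
Median log2 of HF over control (x axis) of the members (red) and of the named mRNAs (open squares) in the 3 tissues under 6 normalizations (rows). In heart and whole blood the members' median moves onto that of the mRNAs with either 75th percentile scaling, and in plasma it stays between -2.78 and -2.04 under all 6.

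Scaling to the 75th percentile moved the median of all features detected on both arrays from 0.02 to 0.20 in heart, from -0.13 to -0.35 in whole blood and from 0.21 to 0.09 in plasma. Relative to the mRNA median of the same normalization, the members' median was -0.63 in heart, 0.59 in whole blood and -2.65 in plasma under quantile normalization, and -0.09, -0.05 and -2.92 under the 75th percentile. Thus the members' median in plasma was lower than that of the mRNAs under both, and in heart and whole blood it differed from the mRNAs under quantile normalization and by less than 0.1 under the 75th percentile. RefSeq names pseudogenes after Atp5k (4), Ndufs5, Cox7c and Cox5b (1 each), and near-identical copies could share the signal of these features.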

How the data were processed

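LncRNA and mRNA levels were measured on 6 Arraystar arrays, 1 for each condition, grouped by the sample labels. The deposited scanner files give an intensity per spot, in 1 colour. The authors used Feature Extraction (version 11.0.1.1), which subtracts background, and the deposited table of the series holds the same values (0 spots differ). The authors then applied quantile normalization in GeneSpring and a 2-fold filter.

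Control spots were left out, log2 intensity was averaged over the spots of a feature, and features were quantile normalized over the 6 arrays. Errors are the software's error of each spot, combined over a pair. Before they were combined, their median over the features detected on an array was 0.15 to 0.16 on the log2 scale. Gene names came from the held part of the gene table of the study, whose value columns were not read. The number of arrays limits the precision of the comparisons. The steps were tested on simulated pairs.

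The members and all gene lists were chosen with earlier results of these data known. Every member is named, with the largest rise and fall of other mitochondrial energy genes in each tissue and the 2 brightest cardiomyocyte and erythroid markers. Further markers (Nppa, Tnni3) were named after their values were seen. Alternatives were other normalizations (75th percentile, quantile in subsets, normexp with an offset of 50), other detection rules, fold thresholds of 1.5 and 4, and 1 feature a gene without assembly factors. Coordinates are those of RefSeq on GRCm38.p6, while the array was designed on an earlier build. R 4.3.3 with limma 3.58.1 was used for normexp, and Python 3.11.15 with pandas 2.3.3, numpy 2.4.6, scipy 1.17.1 and matplotlib 3.10.9 for the rest.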

Additional observations from a re-analysis of the deposited data

Results flagged for a closer look

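In 5 genes, HF over control differed at least 2-fold in opposite directions in 2 tissues. With 1 array for each condition these differences were not tested. Atp5g1 was lower in HF heart (log2 -1.40) and in HF whole blood (log2 -1.01) and higher in HF plasma (log2 3.37), so that heart minus plasma was -4.77 and whole blood minus plasma -4.38. The change in whole blood minus that in plasma was 5.51 for Cox4i1, 3.96 for Cox5b, 3.58 for Ndufs5 and 3.35 for Atp5a1, all higher in HF whole blood and lower in HF plasma. For Cox5b, Ndufs5 and Atp5a1 the rise in whole blood was inside 2-fold after scaling to the 75th percentile, and for Atp5g1 so was the fall in whole blood.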

How the results depend on the processing

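With 75th percentile scaling, 2 of 21 members were lower in heart (median -0.10), beside 14% of the mRNAs. In whole blood 2 of 14 were higher and 3 lower (median -0.46, reversed), beside 15.8% and 34% of the mRNAs. The plasma median was -2.78. With the 75th percentile over features detected on all 6 arrays, chosen after seeing the data, 2 were lower in heart (median -0.34), beside 21.5% of the mRNAs. In whole blood 4 were then higher and 3 lower, beside 24.3% and 24.5% of the mRNAs. The median there was -0.00087, counted as reversed by its sign alone. With quantile normalization within each pair, or of heart and blood separately, 3 were lower in heart (median -0.57) and 0 in whole blood. Of the mRNAs, 18.7% and 26.7% were lower there. With normexp, 0 were lower in whole blood, beside 21.1% of the mRNAs, and 1 higher in plasma (median -2.04), beside 26.9%. With outlier flags ignored, the medians were 0.028 in whole blood and -2.72 in plasma. With a weaker detection flag, 2 of 17 were lower in whole blood (median 0.80), beside 29.2% of the mRNAs, and the plasma median was -3.03. Without a detection filter, 10 of 22 members were higher and 2 lower in whole blood (median 0.89), beside 28% and 29.7% of the mRNAs. In plasma 17 of 22 were then lower (median -2.94), beside 37.6% of the mRNAs. Among features detected on all 6 arrays the plasma median was -2.72. At 1.5-fold, 12 were lower in heart and 2 in whole blood. At 4-fold, 0 were lower in heart, 2 were higher and 0 lower in whole blood, and 1 higher in plasma. The shares of the mRNAs at 1.5-fold and 4-fold were not computed. With 1 feature a gene and no assembly factors, the medians were 0.80 in whole blood and -2.72 in plasma. The causes were not tested. Of 50 single changes, 40 moved by more than their error with 75th percentile scaling, 32 with that over features detected on all arrays, 14 with normexp, 8 with quantile normalization of heart and blood separately and 9 with quantile normalization within each pair. No paired analysis was possible because each condition had 1 array, and for the same reason no replicate could be left out. Dim features are limited by the background.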
